A study of Mus musculus with 18 samples.

Results

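The genes described here are those that copy the genome in S phase and separate the copies in mitosis. They were chosen by name alone: symbols of the origin recognition complex, the MCM helicase and its loaders, the DNA polymerases, primase, clamp and ligase, thymidylate and deoxynucleotide enzymes, cyclins A, B, E and F with their kinases and Cdc25 phosphatases, E2f and Foxm1 factors, mitotic kinases, spindle checkpoint proteins, centromere proteins, kinesins, Mki67, Top2a and Birc5. The rule found 89 probes of 88 genes among 10500 probes, with both probes of Pole3. It also took Mad2l1bp by its name, a protein that binds Mad2l1. Of the 89 probes, 76 were bright enough to test. The other 13 were too dim in these glands: Cdc7, Mcm2, Pola1, Rrm1, Ccne1, Cdc25c, Aurka, Bub1, Plk1, Cenpu, Cenpx, Kif23 and Kif4.

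RNA was measured on 18 single-colour arrays from lacrimal, meibomian and submandibular glands of male BALB/c mice. Every animal, placebo animals included, had been orchiectomised, which removes the testes and with them the main source of androgen. The 6 groups were the lacrimal gland with testosterone and with placebo, the meibomian gland with testosterone and with placebo, and the submandibular gland with testosterone and with placebo. Hormone or placebo came from a pellet worn for 21 days, and each group had 3 pools, A, B and C, each of 10 glands from 5 animals. The labels call the pools separate but also give 4 animals per sex and experiment, so p-values measure the spread between these pools. No intact animals were among the groups used here, and whole glands were used, so fewer cycling cells and less RNA per cycling cell cannot be told apart.

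A cell that enters S phase first licenses its replication origins, when the origin recognition complex and Cdc6 load the ring of MCM proteins, and then fires them by adding Cdc45 and the GINS complex. The E2F factors switch on most of these genes together with the enzymes that make deoxynucleotides, while a later wave, under Foxm1 and a complex that binds the cell cycle homology region, holds the cyclins, kinases, kinesins and centromere proteins of mitosis. The lacrimal gland secretes the aqueous layer of tears, the submandibular gland makes saliva, and the meibomian gland of the eyelid is a sebaceous gland, whose secreting cells are lost into the secretion and are replaced by dividing cells at the edge of each lobule.

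The start regions of 8 members are shown because several of them hold short motifs known from cell cycle promoters, which the choice by name did not use. They run from 250 bases before to 50 bases after the start that RefSeq gives in mouse build GRCm38.p6, 5′ to 3′ on the gene's own strand. The first 6 are the strongest called risers of their roles in the lacrimal gland, and the last 2 are bright members that were not called there. Capitals mark 3 motifs on either strand: the CCAAT box, the cell cycle homology region TTTGAA, and the E2F sites TTTCCCGC, TTTCGCGC, TTTGCCGC and TTTGGCGC. Mki67 lies at chr7:135716330-135716629 on the minus strand, Cdk1 at chr10:69352863-69353162 on the minus strand, Cdc45 at chr16:18811923-18812222 on the minus strand and Tyms at chr5:30073576-30073875 on the minus strand. Cdc20 lies at chr4:118437294-118437593 on the minus strand, Kif11 at chr19:37376132-37376431 on the plus strand, E2f3 at chr13:29986014-29986313 on the minus strand and Pole4 at chr6:82652825-82653124 on the minus strand. E2f3 and Pole4 each have more than 1 listed start, of which the first is shown.
Mki67: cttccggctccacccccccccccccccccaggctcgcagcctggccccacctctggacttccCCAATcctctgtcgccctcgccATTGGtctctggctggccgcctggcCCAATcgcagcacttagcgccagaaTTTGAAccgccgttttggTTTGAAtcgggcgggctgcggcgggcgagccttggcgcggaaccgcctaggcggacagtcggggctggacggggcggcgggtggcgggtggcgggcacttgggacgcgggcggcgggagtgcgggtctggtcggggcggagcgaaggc
Cdk1: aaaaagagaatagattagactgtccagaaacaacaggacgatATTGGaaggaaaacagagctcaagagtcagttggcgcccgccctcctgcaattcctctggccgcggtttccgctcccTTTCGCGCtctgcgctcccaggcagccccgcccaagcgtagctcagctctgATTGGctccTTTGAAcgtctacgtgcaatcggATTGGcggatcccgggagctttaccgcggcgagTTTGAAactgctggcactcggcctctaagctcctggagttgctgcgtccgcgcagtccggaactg
Cdc45: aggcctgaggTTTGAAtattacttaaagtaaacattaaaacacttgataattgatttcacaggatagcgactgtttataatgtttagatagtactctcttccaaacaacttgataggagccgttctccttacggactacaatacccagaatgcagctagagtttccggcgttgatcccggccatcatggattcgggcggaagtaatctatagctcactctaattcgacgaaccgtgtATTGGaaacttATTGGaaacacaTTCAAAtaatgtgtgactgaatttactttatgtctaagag
Tyms: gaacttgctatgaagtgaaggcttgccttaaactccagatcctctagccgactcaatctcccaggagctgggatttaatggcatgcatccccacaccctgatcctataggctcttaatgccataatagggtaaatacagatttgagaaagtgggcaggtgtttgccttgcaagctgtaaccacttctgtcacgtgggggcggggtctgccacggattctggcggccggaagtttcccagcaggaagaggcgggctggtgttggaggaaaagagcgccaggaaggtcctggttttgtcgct
Cdc20: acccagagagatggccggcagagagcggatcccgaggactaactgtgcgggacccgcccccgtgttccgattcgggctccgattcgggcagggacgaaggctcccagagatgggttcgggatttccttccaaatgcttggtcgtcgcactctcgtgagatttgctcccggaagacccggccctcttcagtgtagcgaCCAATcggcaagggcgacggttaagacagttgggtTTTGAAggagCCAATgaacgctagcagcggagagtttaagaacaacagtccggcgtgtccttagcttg
Kif11: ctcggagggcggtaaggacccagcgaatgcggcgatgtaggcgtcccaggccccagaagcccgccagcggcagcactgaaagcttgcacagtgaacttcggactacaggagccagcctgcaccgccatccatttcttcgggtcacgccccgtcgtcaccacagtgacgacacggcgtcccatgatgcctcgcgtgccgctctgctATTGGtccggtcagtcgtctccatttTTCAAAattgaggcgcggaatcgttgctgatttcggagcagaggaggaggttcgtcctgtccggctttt
E2f3: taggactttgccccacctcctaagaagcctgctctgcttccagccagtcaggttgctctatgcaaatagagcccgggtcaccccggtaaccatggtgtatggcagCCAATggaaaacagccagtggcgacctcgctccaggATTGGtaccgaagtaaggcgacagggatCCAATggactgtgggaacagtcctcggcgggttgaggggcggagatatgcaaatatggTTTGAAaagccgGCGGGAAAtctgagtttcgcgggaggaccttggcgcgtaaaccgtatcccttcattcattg
Pole4: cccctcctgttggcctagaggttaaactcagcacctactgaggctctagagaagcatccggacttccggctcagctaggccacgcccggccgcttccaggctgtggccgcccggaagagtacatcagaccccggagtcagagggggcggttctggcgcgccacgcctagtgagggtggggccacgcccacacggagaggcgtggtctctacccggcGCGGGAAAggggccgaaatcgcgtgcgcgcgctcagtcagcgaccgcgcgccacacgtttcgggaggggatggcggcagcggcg

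In the Cdk1 window a cell cycle homology region lay at -15 to -10 from the start and a CCAAT box at -48 to -44, and Cdc20 (-18 to -13) and Kif11 (-19 to -14) had a homology region at nearly the same place. Mki67 had 2 homology regions, at -116 to -111 and -98 to -93. The Tyms window held none of the 3 motifs. Windows were found for 76 of the 88 genes. Of these, 65.8% held a CCAAT box, 28.9% a homology region and 26.3% an E2F site, against 37.9%, 18.1% and 2.32% of 27025 promoters in the table and 38%, 12.9% and 3.74% of 7051 genes on the array. The median GC content was 59.3% for the members and 59.3% for genes on the array, against 52.7% for the table. Of the 41 windows of members called higher in the lacrimal gland, 34.1% had a homology region and 24.4% an E2F site, and of the 20 windows of uncalled members 10% and 40%. The androgen receptor half-site AGAACA was in 11.8% of member windows and 13.9% of those of genes on the array. By lacrimal call, it was in 2 of 41 windows of members called higher (4.88%) and 0 of 3 of those called lower. Among uncalled members 3 of 20 windows had it (15%), and among untested members 4 of 12 (33.3%). A match is a run of letters, and binding was not measured.

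**Figure D1:**
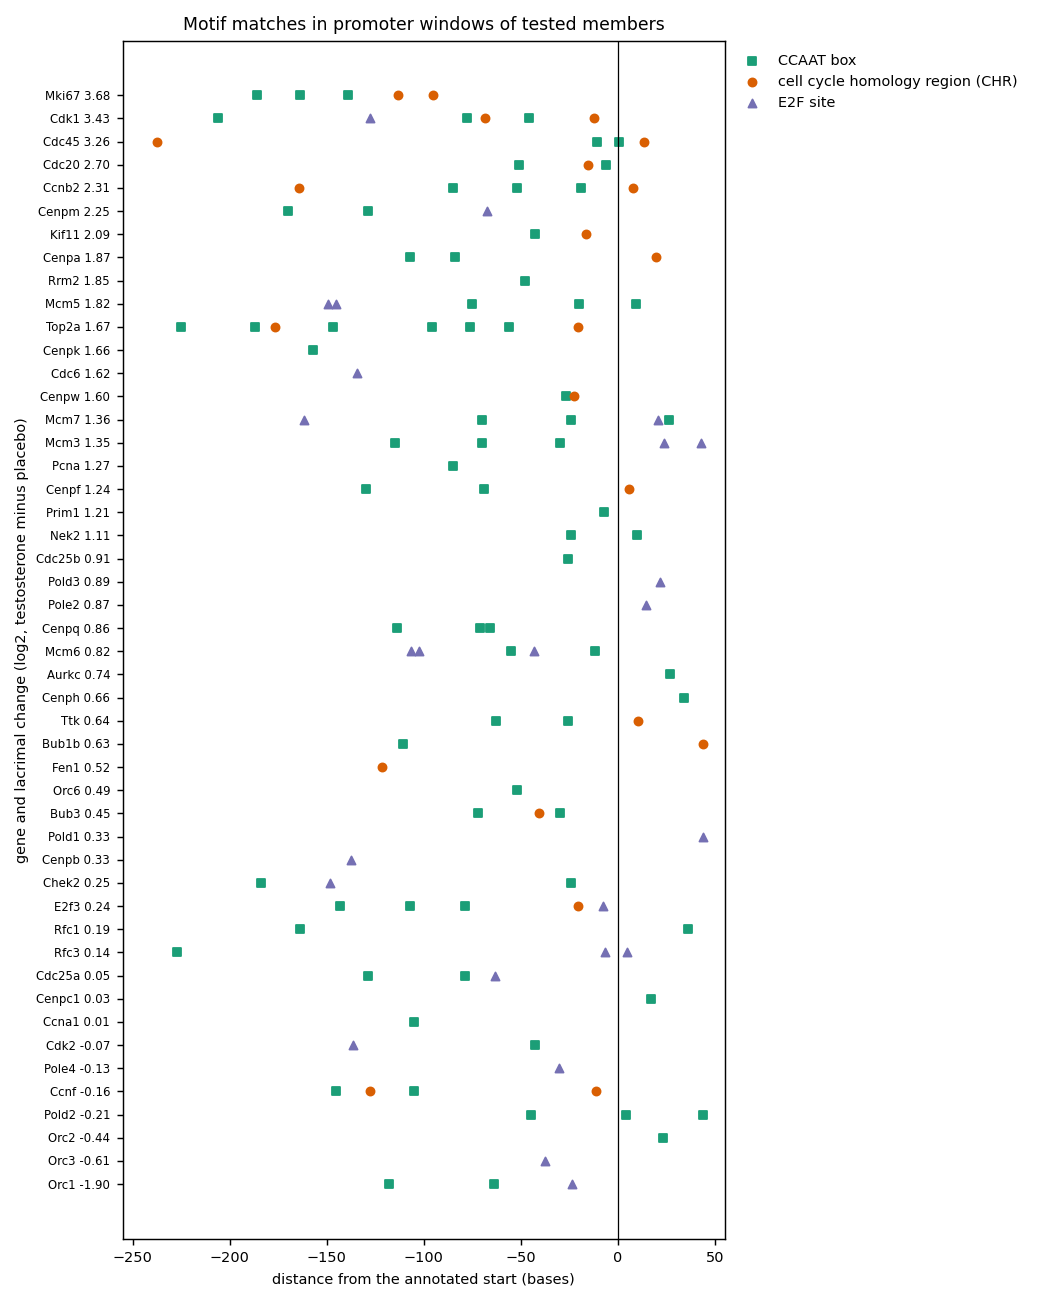
Positions of CCAAT box (squares), cell cycle homology region (circles) and E2F site (triangles) matches in promoter windows of tested members, from 250 bases before to 50 after the annotated start (vertical line). Genes run from the largest lacrimal change (Mki67, 3.68) at the top to the most negative (Orc1, -1.90) at the bottom, and tested genes with no match, such as Tyms, are not drawn.

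Sums of marker lists matched the labels of the meibomian and submandibular glands. Probes of a sebocyte list summed to 585 to 758 intensity units per pool in the meibomian gland with testosterone and to 510.0 to 520.3 with placebo, and to no more than 71.4 in any pool of the other glands. Submandibular granular tubule and acinar probes summed to 815 to 903 with testosterone and to 694 to 789 with placebo, against at most 42.4 elsewhere. Lacrimal acinar probes summed to 963 to 1405 with testosterone and to 1727 to 1772 with placebo, but this list did not separate the lacrimal from the submandibular gland (921 to 1157 with testosterone and 1008 to 1099 with placebo), and in the meibomian gland it reached at most 122. Array maxima lay between 134.6 and 219.1 in the meibomian gland and above 597 elsewhere. Spearman correlations between pools of a group were at least 0.906. Values below are scaled intensities, compared only within a probe, and changes are log2 differences ± SE of testosterone minus placebo. A probe is called where the adjusted p is under 0.05 over the 7463 tested probes.

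Replication and mitosis genes were broadly higher in the lacrimal gland with testosterone than with placebo. Of 76 tested members 46 were called higher and 3 lower, where 13.3% of all tested probes were called higher and 14.8% lower. A member could pass the filter on dim probes through the group where it was high, so the filter was also computed on the arrays of the other glands alone, an alternative chosen after seeing the data: of 72 members then tested 44 were called higher and 2 lower, and Orc1, Cdc25b and Cenpp were among those no longer tested. The median change of the members was 0.64, against -0.07 for all tested probes. At least 2-fold changes were called for 29 members higher and 1 lower. The 3 lacrimal testosterone pools lay at medians of 0.67, 0.68 and 0.62 above the placebo mean, with 65, 60 and 65 of the 76 members above it, so each pool showed the rise. Pools of the groups did not overlap for 47 members that were higher and 3 that were lower, and over all tested probes this held for 18.2% and 21.5%. In the meibomian gland 0 members were called in either direction (0.469% of all probes higher and 0.121% lower), and in the submandibular gland 0 were called higher and 3 lower (8.54% and 5.25%).

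**Figure D2:**
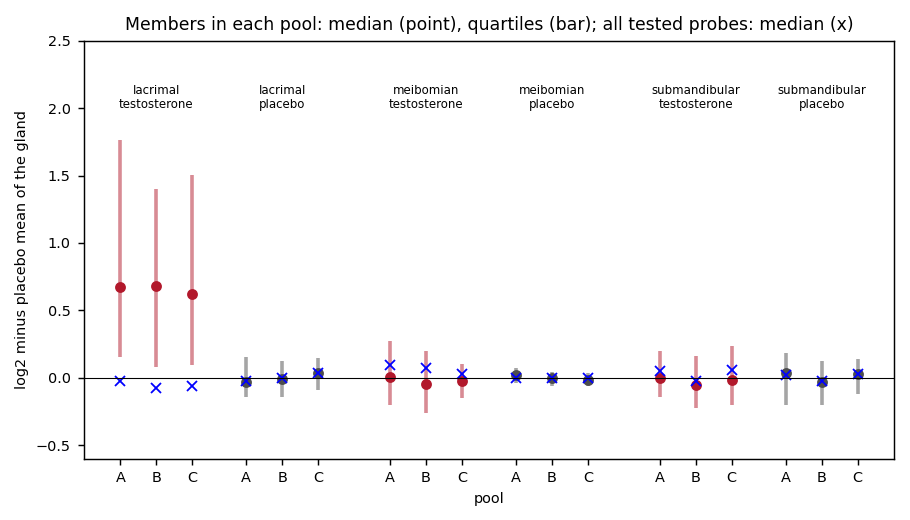
Median (point) and quartiles (bar) over the tested members in each of the 18 pools, as log2 minus the mean of the placebo pools of the same gland, and the median of all 7463 tested probes (cross). Testosterone pools stand left of placebo pools in each gland, and the lacrimal testosterone pools sit at 0.62 to 0.68 while every other pool's member median is between -0.06 and 0.04.

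By role, in the lacrimal gland, 12 of 13 tested centromere and chromosome probes were called higher, 7 of 9 mitotic kinases and checkpoint proteins, 3 of 3 deoxynucleotide enzymes, 9 of 14 licensing and firing genes (with 2 lower), 4 of 9 cyclins, kinases and Cdc25 phosphatases, 7 of 18 fork genes, 2 of 5 transcription factors (with 1 lower), 1 of 2 kinesins, and the single anaphase member. Neither of the 2 DNA damage checkpoint kinases was called. Median changes were 1.60 for centromere and chromosome probes, 0.86 for licensing and firing, and 0.32 for the fork genes. The rise covered S phase genes and mitotic genes, and 11 of the 18 fork probes were not called.

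**Figure D3:**
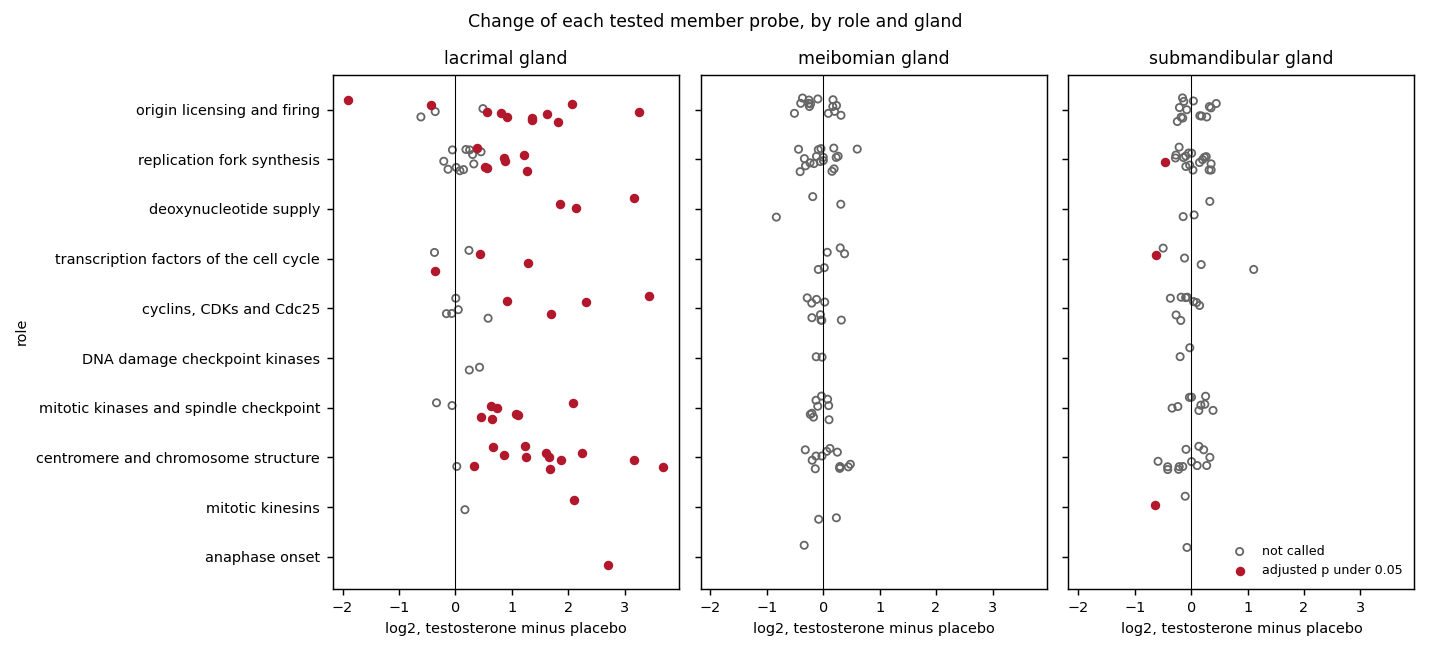
Change of each tested member probe (testosterone minus placebo, log2) by role, in the lacrimal, meibomian and submandibular gland. Filled points have an adjusted p under 0.05: 49 members in the lacrimal panel, 0 in the meibomian panel and 3 in the submandibular panel.

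The licensing and firing genes are the first to act. Cdc45, the helicase partner added when an origin fires, measured 10.7, 6.19 and 6.56 in lacrimal testosterone pools A, B and C, against 0.412, 0.772 and 0.783 in placebo pools. Every testosterone pool was above every placebo pool, and the change was 3.26 ± 0.21 (adjusted p = 4.91e-09). Gmnn, the geminin that blocks relicensing, measured 5.06, 4.04 and 3.80 with testosterone and 1.02, 0.663 and 1.01 with placebo, a change of 2.07 ± 0.16 (adjusted p = 3.70e-08). Mcm5, a helicase ring subunit, measured 1.95, 1.73 and 1.99 with testosterone and 0.337, 0.389 and 0.524 with placebo, a change of 1.82 ± 0.16 (adjusted p = 1.70e-07). Cdc6, the loader of the ring, measured 1.48, 1.32 and 1.25 with testosterone and 0.353, 0.423 and 0.207 with placebo (change 1.62 ± 0.17, adjusted p = 1.58e-06). All 5 tested ring subunits were called higher, Mcm3 by 1.35, Mcm4 by 0.91, Mcm6 by 0.82 and Mcm7 by 1.36 beside Mcm5, while Mcm2 was too dim to test, at 0.613 ± 0.0874 with testosterone and 0.442 ± 0.123 with placebo.

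Subunits of the origin recognition complex were called in both directions. Orc1, its largest subunit, measured 1.22, 1.19 and 0.889 with testosterone and 4.50, 5.53 and 3.73 with placebo, with all testosterone pools below all placebo pools (change -1.90 ± 0.19, adjusted p = 8.61e-07). Lacrimal placebo pools were the brightest of all for Orc1: the meibomian gland measured 0.295 to 0.339 with testosterone and 0.208 to 0.297 with placebo, and the submandibular gland 0.270 to 0.470 with testosterone and 0.327 to 0.563 with placebo. Orc2 fell by 0.44 (adjusted p = 0.0186), at 0.457, 0.336 and 0.554 with testosterone and 0.628, 0.674 and 0.687 with placebo, a level near the dim end of the arrays. Orc4 was called higher by 0.56 (adjusted p = 0.0169). Orc3 and Orc5 had changes of -0.61 ± 0.26 and -0.36 ± 0.31 and Orc6 of 0.49 ± 0.18 (adjusted p = 0.0881, 0.429 and 0.0505), so none of them passed. Thus 2 of the 6 origin recognition subunits were called lower and 1 higher.

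At the replication fork, Pcna, the sliding clamp, measured 37.2, 33.2 and 28.2 with testosterone and 14.5, 12.1 and 13.7 with placebo (change 1.27 ± 0.12, adjusted p = 6.51e-07). The groups stood well apart, and the gene was bright in both. Prim1, the primase catalytic subunit, measured 1.82, 1.63 and 1.97 with testosterone and 0.596, 0.661 and 0.796 with placebo (change 1.21 ± 0.21). The polymerase delta subunit Pold3 rose by 0.89 and the polymerase epsilon subunit Pole2 by 0.87, with adjusted p = 0.00749 and 0.00225. Prim2, Fen1 and Lig1 rose by less, 0.55, 0.52 and 0.39. Bright fork members that did not pass were Pole4 (5.64 ± 0.739 with testosterone and 6.16 ± 0.210 with placebo), Pold2 (2.94 ± 0.602 with testosterone and 3.41 ± 0.577 with placebo) and the clamp loader subunit Rfc2 (3.84 ± 0.819 with testosterone and 3.19 ± 0.678 with placebo, each SD over n = 3). None of the clamp loader subunits Rfc1, Rfc2, Rfc3 and Rfc5 passed, and neither probe of Pole3 did (0.01 and -0.05). Pola1, the polymerase alpha catalytic subunit, was dim, at 0.388 ± 0.118 with testosterone and 0.395 ± 0.0614 with placebo.

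Among enzymes that supply deoxynucleotides, Tyms, which makes thymidylate, measured 13.6, 16.7 and 16.7 with testosterone and 1.58, 1.73 and 1.46 with placebo, a change of 3.16 ± 0.20 (adjusted p = 3.70e-09). Tk1, the S phase thymidine kinase, measured 2.84, 1.82 and 2.06 with testosterone and 0.517, 0.177 and 0.478 with placebo (change 2.13 ± 0.25, adjusted p = 7.06e-06). Rrm2, the small subunit of ribonucleotide reductase, measured 6.47, 5.80 and 6.02 with testosterone and 1.42, 1.58 and 1.70 with placebo (change 1.85 ± 0.30, adjusted p = 0.000208). All 3 tested members were apart between the treatments. The large subunit gene Rrm1 was dim in every gland and was not tested.

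Among the transcription factors, E2f1, an activator of S phase genes, measured 2.52, 3.22 and 3.49 with testosterone and 1.12, 1.23 and 1.09 with placebo (change 1.29 ± 0.15, adjusted p = 6.64e-06). E2f5, which acts mostly as a repressor in resting cells, measured 115, 104 and 97.6 with testosterone and 83.8, 72.6 and 75.4 with placebo (change 0.44 ± 0.11, adjusted p = 0.00549). E2f6, a repressor, fell by 0.37 (adjusted p = 0.0178), at 3.12, 2.96 and 2.85 with testosterone and 4.15, 3.40 and 4.18 with placebo. These moved in different directions. E2f3 overlapped between the groups (93.0 to 116 with testosterone and 73.7 to 108 with placebo). Foxm1, the activator of the mitotic wave, was not called, at 1.48, 2.30 and 3.98 with testosterone and 2.41, 3.33 and 3.88 with placebo. Its pools were among the most scattered of the members, also in the submandibular gland (13.6, 16.2 and 8.54 with testosterone and 17.1, 3.42 and 3.001 with placebo).

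Among the cyclins and their kinases, Cdk1, the mitotic kinase, measured 10.2, 6.31 and 5.51 with testosterone and 0.679, 0.438 and 0.416 with placebo (change 3.43 ± 0.20, adjusted p = 8.26e-10). Its partners Ccnb2 (4.50, 1.73 and 1.93 with testosterone and 0.422, 0.419 and 0.259 with placebo) and Ccna2 (1.69, 1.33 and 1.67 with testosterone and 0.322, 0.270 and 0.504 with placebo) rose by 2.31 and 1.70. The S phase kinase Cdk2 was not called, at 2.14, 1.78 and 2.12 with testosterone and 1.98, 1.92 and 2.45 with placebo (change -0.07 ± 0.15, adjusted p = 0.791). Ccna1, a cyclin mainly of the germ line, and Ccnf were not called (0.01 and -0.16). Cdc25b was called (0.91 ± 0.26, adjusted p = 0.0152) although its pools overlapped: testosterone pools read 0.761, 2.18 and 1.51 and placebo pools 0.965, 0.516 and 0.538. Ccne1 was dim, and Ccne2 missed the threshold (0.58 ± 0.22, adjusted p = 0.0551).

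The checkpoint kinases Chek1 and Chek2 had differences of 0.43 ± 0.16 and 0.25 ± 0.11 and were not called (adjusted p = 0.0525 and 0.117). Pools overlapped for Chek1 and not for Chek2. Among spindle checkpoint and mitotic kinase members, Mad2l1, which holds back anaphase until chromosomes are attached, measured 6.77, 5.15 and 5.26 with testosterone and 0.941, 1.28 and 1.46 with placebo (change 2.08 ± 0.18, adjusted p = 1.28e-07). Nek2, a centrosome kinase, Plk4, the kinase that starts centriole copying, and Aurkc rose by 1.11, 1.07 and 0.74, and Ttk, Bub1b and Bub3 by 0.64, 0.63 and 0.45. Aurka, Bub1 and Plk1, core mitotic kinases, were dim in both groups, so their behaviour was not measured. Aurkb was uncalled, with 1 placebo pool far above the rest (0.433, 0.423 and 0.479 with testosterone and 0.272, 2.03 and 0.310 with placebo). The Mad2l1 partner Mad2l1bp was also uncalled (-0.06 ± 0.16).

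Centromere and chromosome structure held the largest change of any member. Mki67, whose protein coats mitotic chromosomes and marks cycling cells, measured 9.54, 6.37 and 6.07 with testosterone and 0.406, 0.418 and 0.377 with placebo (change 3.68 ± 0.20, adjusted p = 4.58e-10). Birc5, survivin, a subunit of the chromosomal passenger complex, measured 7.31, 5.45 and 5.17 with testosterone and 0.575, 0.429 and 0.514 with placebo (change 3.17 ± 0.19, adjusted p = 1.57e-09). For both genes every testosterone pool was far above every placebo pool. Cenpm, a kinetochore protein, rose by 2.25 and Cenpa, the histone variant that marks centromeres, by 1.87, with pools of 8.97, 7.59 and 7.63 with testosterone and 2.45, 1.85 and 1.95 with placebo. Top2a, the topoisomerase that untangles chromosomes, rose by 1.67. Cenpw was called (1.60 ± 0.41, adjusted p = 0.00819) with overlapping pools, since testosterone pool B read as low as placebo (3.49, 0.434 and 1.98 with testosterone and 0.321, 0.349 and 0.494 with placebo). Cenpc1, at 2.30 ± 0.247 with testosterone and 2.25 ± 0.217 with placebo, was the only tested centromere member not called.

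Of the mitotic kinesins, Kif11, the motor that separates the spindle poles, measured 3.94, 2.22 and 2.71 with testosterone and 0.458, 0.685 and 0.500 with placebo (change 2.09 ± 0.20, adjusted p = 6.94e-07). Kif20a, a cytokinesis motor, overlapped between the groups (3.57, 3.97 and 3.31 with testosterone and 3.05, 3.69 and 2.87 with placebo). Cdc20, the activator of the ubiquitin ligase that starts anaphase, measured 3.68, 3.07 and 3.10 with testosterone and 0.437, 0.259 and 0.388 with placebo (change 2.70 ± 0.20, adjusted p = 2.81e-08). Many lacrimal placebo values of these genes lay near 0.4, below the 40th percentile of the lacrimal placebo arrays (0.638 to 0.646), so fold sizes depend on the offset added before the log: the change of Mki67 was 2.85 with an offset 4 times larger and 4.02 with one 4 times smaller. Testosterone pool A was the highest of its group for 49 of the 76 members and for 3450 of 7443 tested probes, and the member medians of pools B and C were close to that of pool A. Of the 49 lacrimal calls 32 held in every alternative setting of fit, filter and arrays. Another 4 held wherever they were tested, but a filter removed the probe in at least 1 setting: the filter at the array median for Bub1b, Nek2 and Cenpp, and the filter on the other glands for Orc1 and Cenpp. The other 13 were lost in at least 1 setting: Bub3, Cdc25b, Cenpb, Cenph, Cenpw, E2f6, Fen1, Lig1, Mcm6, Orc2, Orc4, Prim2 and Ttk.

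**Figure D4:**
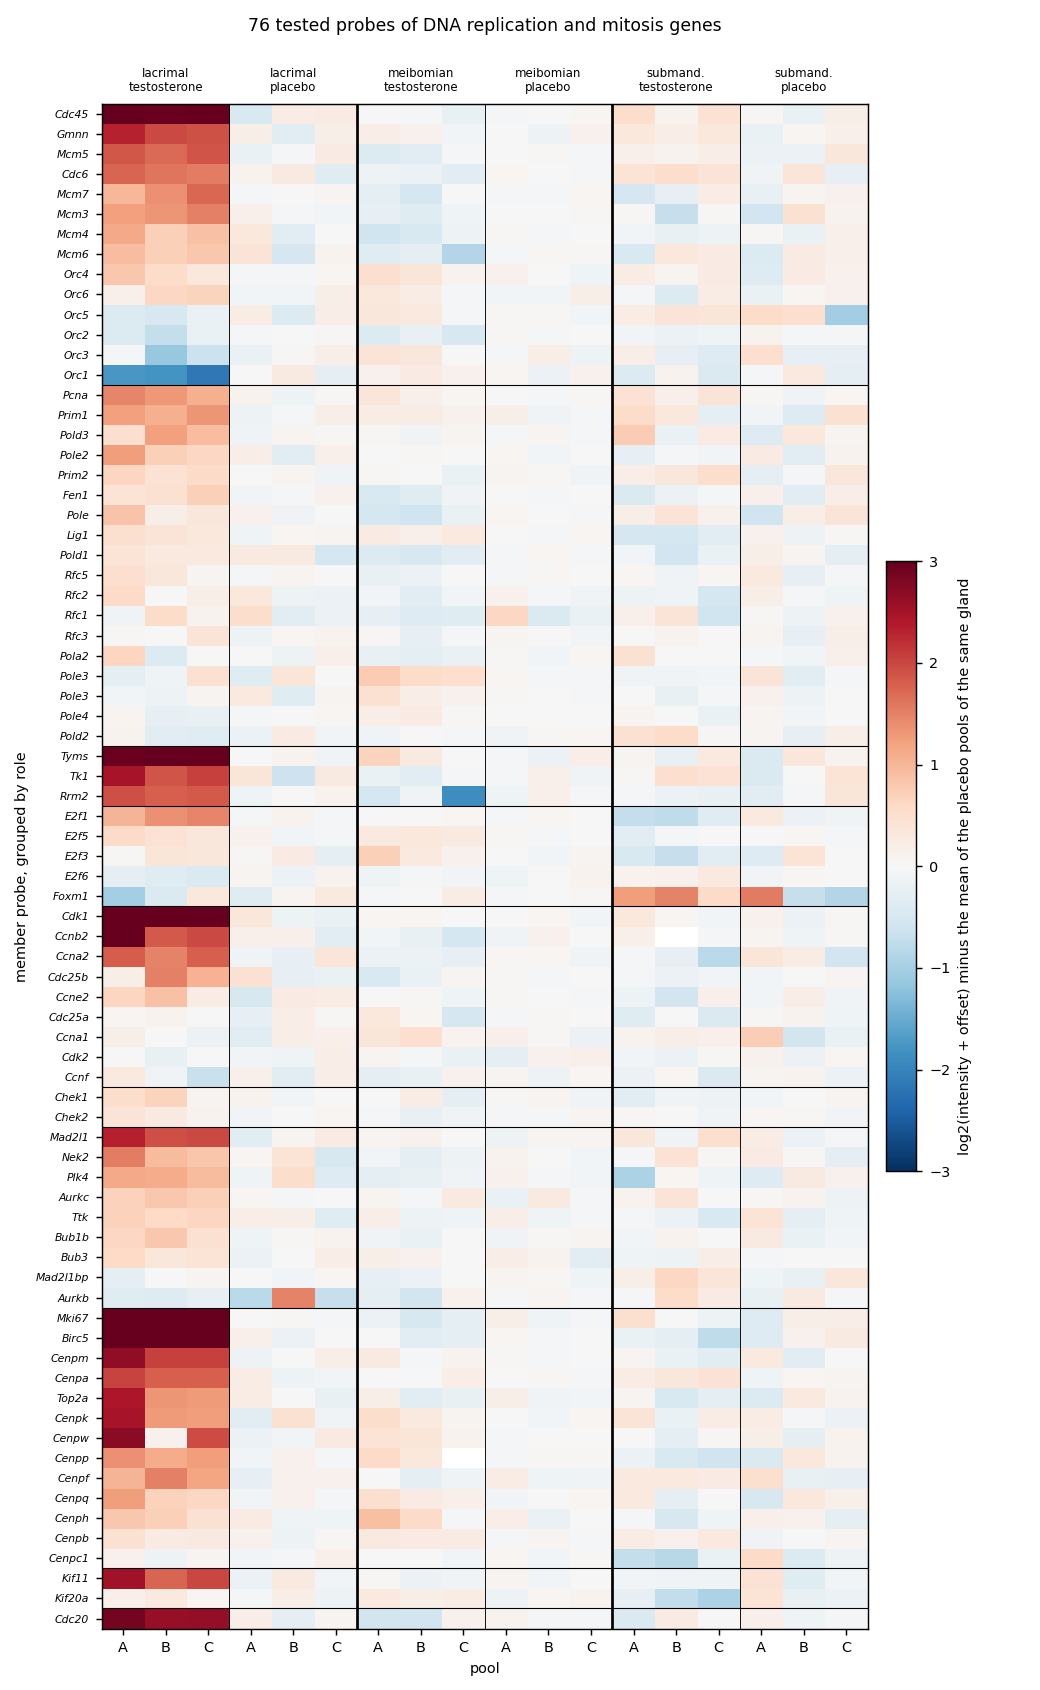
Each of the 76 tested probes (rows, grouped by role and ordered within a role by lacrimal change) in the 18 pools (columns), as log2(intensity + offset) minus the mean of the placebo pools of the same gland. White cells have no value or no difference, colours are clipped at 3, and the block of high values is in the lacrimal testosterone pools A, B and C.

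In the meibomian gland limma called 0 of the 76 tested members. Changes ran from -0.83 to 0.60 with a median of -0.04. Several genes that rose in the lacrimal gland were bright here with either treatment. Mki67 measured 8.46, 6.79 and 7.77 in meibomian testosterone pools and 10.8, 8.69 and 9.36 in placebo pools, Cdk1 7.05, 7.03 and 6.69 with testosterone and 6.91, 7.14 and 6.37 with placebo, and Birc5 8.35, 6.58 and 6.87 with testosterone and 8.64, 8.08 and 8.21 with placebo. The 2 treatments overlapped for Cdk1 and Birc5, while all 3 Mki67 testosterone pools were below all 3 placebo pools without passing the test (change -0.32 ± 0.20, adjusted p = 0.492). With array weights 13 members were called higher and 15 lower in this gland, counts given without the share of all tested probes at that setting. Whether the members stood out from other probes there was not tested. Pools did not overlap for 13 members that were higher and 13 that were lower. Over all tested probes this held for 24.1% and 11.8%. Meibomian pools spread the least, with a median log2 SD within groups of 0.135, where lacrimal pools had 0.219 and submandibular pools 0.22. The main fit pooled the spread of all 3 glands. A missing call therefore does not show that the members did not differ.

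In the submandibular gland 3 of the 76 tested members were called, all lower, where 5.25% of all tested probes were called lower. Lig1, the ligase that joins Okazaki fragments, measured 4.22, 4.18 and 4.78 with testosterone and 6.61, 5.48 and 6.20 with placebo (change -0.46 ± 0.11, adjusted p = 0.00809). E2f1 measured 0.846, 0.823 and 1.13 with testosterone and 1.89, 1.31 and 1.39 with placebo (change -0.62 ± 0.15, adjusted p = 0.0131), and Kif20a 1.23, 0.828 and 0.692 with testosterone and 2.03, 1.24 and 1.30 with placebo (change -0.64 ± 0.19, adjusted p = 0.0325). Pools did not overlap for these 3, yet none kept its call in every alternative setting, and in the 6 submandibular arrays fitted alone 0 were called lower. Among all 76 tested members, pools did not overlap for 6 that were higher with testosterone and 5 that were lower. Over all tested probes this held for 16.5% and 12.3%. Mki67 had 1.70, 1.16 and 1.04 with testosterone and 0.862, 1.36 and 1.36 with placebo, with overlapping pools. Members' changes ran from -0.64 to 1.11 around a median of -0.04.

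**Figure D5:**
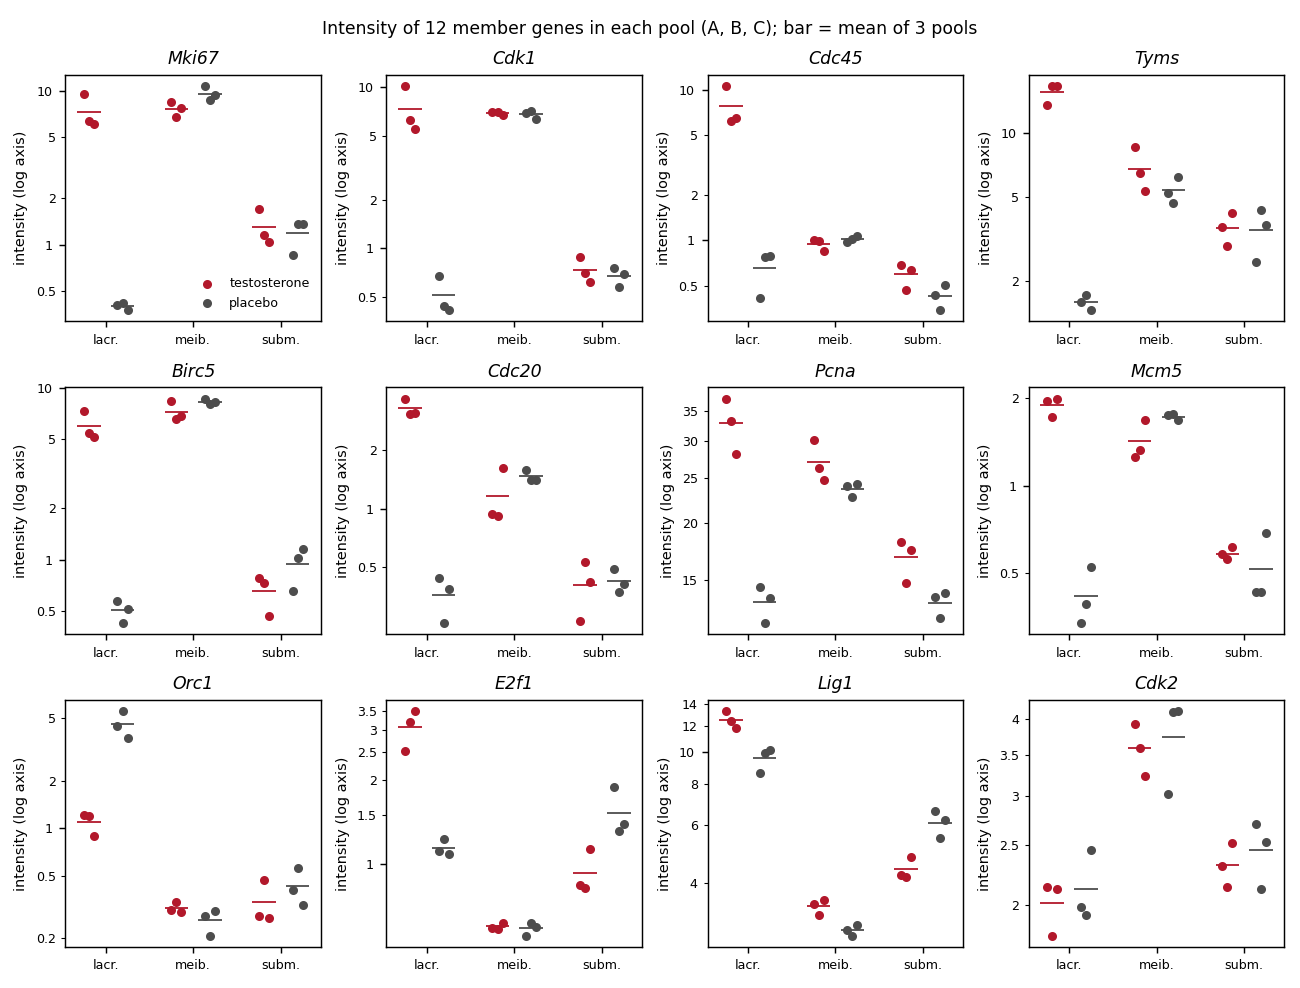
Intensity (log axis) of 12 members in each pool of the 3 glands, with testosterone (red, left) and placebo (grey, right), points for pools and bars for means of 3 pools. In the lacrimal gland Mki67 lies between 6.07 and 9.54 with testosterone and between 0.377 and 0.418 with placebo, Orc1 runs the other way, and Cdk2 overlaps between the treatments.

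The difference of the testosterone effect between glands was tested directly. Lacrimal minus meibomian, 35 members were called with a larger effect in the lacrimal gland and 1 with a smaller one (6.99% and 10.6% of all probes). Lacrimal minus submandibular, 39 were called larger and 2 smaller (10.3% and 13.8%). Mki67 had the largest difference against the meibomian gland, 4.00 ± 0.28, and Birc5 against the submandibular gland, 3.58 ± 0.27. The next were Cdk1 (3.40 and 3.33 against the meibomian and submandibular glands), Cdc45 (3.36 and 2.91), Cdc20 (3.04 and 2.78) and Tyms (2.85 and 3.11). Both lacrimal comparisons use the same lacrimal arrays. Orc1 differed the other way in both, by -2.07 and -1.65, and E2f6 against the submandibular gland only (-0.55). Submandibular minus meibomian, 0 members were called larger and 1 smaller (3.99% and 3.4% of all probes), Lig1, by -0.68 (adjusted p = 0.00950).

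Without testosterone the glands differed in these genes. Lacrimal minus meibomian placebo pools, 14 members were called higher and 43 lower (38.7% and 29.2% of all probes). Submandibular minus meibomian, 11 were called higher and 46 lower (36% and 30.6%). Lacrimal minus submandibular, 11 were called higher and 11 lower (26.2% and 17.8%), which is under the share of all probes in both directions. Mki67 was 4.09 lower in lacrimal than in meibomian placebo pools, Birc5 3.65, Cdk1 3.37, Ccna2 2.63 and Top2a 2.27 lower on the log2 scale. In the submandibular placebo pools these were 2.86, 2.95, 3.04, 2.57 and 2.56 lower than in the meibomian ones.

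The 14 members called higher in lacrimal than in meibomian placebo pools were of several roles. Orc1 was 3.44 higher in lacrimal than in meibomian placebo pools, Foxm1 2.12, E2f3 1.89, Ccna1 1.88, Kif20a 1.72, Lig1 1.68, E2f5 1.64, Cenpb 1.39, Fen1 1.05, Pold3 1.01, Orc3 0.81, E2f1 0.78, Pold2 0.67 and Aurkc 0.66. Among transcription factors 4 of 5 were called higher and 0 lower in lacrimal minus meibomian placebo pools. With testosterone the lacrimal means of Mki67 (7.32), Cdk1 (7.35) and Birc5 (5.98) stood beside meibomian placebo means of 9.62, 6.81 and 8.31, values that are set side by side without a test. Because the meibomian arrays had a lower maximum than the others, gland and array range cannot be told apart in these comparisons.

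Genes of the same machinery that the name rule does not cover were listed separately. In the lacrimal gland 19 of 33 tested spindle, condensin, cohesin and cytokinesis probes were called higher and 0 lower, with a median of 0.75. Pbk, a mitotic kinase, measured 6.88 ± 0.869 with testosterone and 0.463 ± 0.0996 with placebo, Stmn1, a microtubule regulator, 7.27 ± 2.32 with testosterone and 0.850 ± 0.0639 with placebo, and Hmmr 3.27 ± 1.20 with testosterone and 0.538 ± 0.116 with placebo (SD, n = 3 pools). Of 23 further fork, nucleotide and chromatin assembly probes 9 were higher and 2 lower, with Rbbp7 (2.10), Rpa1 (1.78), Uhrf1 (1.67) and the GINS subunit Gins1 (1.53) the largest rises and Top2b (-0.85) and Dck (-0.60) the falls.

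Regulators of G1 and repair genes were called in both directions in the lacrimal gland. Of all tested probes there, 13.3% were called higher and 14.8% lower. Of 36 probes of G1 regulators 8 were called higher and 4 lower, with a median change of 0.09. Among the rises were the pocket proteins Rbl1 (2.61) and Rb1 (2.23), which restrain E2F factors. The stress genes Gadd45g (1.68) and Gadd45a (1.26) rose too. Cdk4 (-0.70) was among the falls, and the other falls are not named here. Of 20 recombination and mismatch repair probes 3 were higher and 1 lower (Rad51ap1 1.60, Fancg 0.84, Blm 0.68, Atm -0.67). Of 8 histone probes H2ax (0.99) and H2az1 (0.45) were higher, and H4c9 fell to 20.2 ± 2.80 with testosterone, against 124 ± 10.4 with placebo. In the meibomian gland H4c9 alone was called among these 5 lists (0.85). In the submandibular gland 6 probes of these lists were called higher and 3 lower, Gadd45a (2.59) the largest of them. Over all tested probes of that gland 8.54% were called higher and 5.25% lower. The lists had 23, 33, 36, 20 and 8 tested probes, so both counts were under those shares. Of the 19 spindle genes called in the lacrimal gland, Stmn1 (0.52) was also called in the submandibular gland.

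Markers of other cell types were also examined in the lacrimal gland, where 13.3% of all tested probes were called higher and 14.8% lower. Of 8 tested B and plasma cell markers 3 were higher, and the summed level of that list was 101 to 109 with testosterone and 67.7 to 78.0 with placebo. Pou2af1, a B cell coactivator, rose by 2.71, and Blk and Ms4a1 were dim in both groups. Of 9 T and NK cell markers 2 were higher and 2 lower, with a median change of -0.06. Their sums were 20.7 to 25.7 with testosterone and 20.2 to 24.1 with placebo, and the defining Cd3e, Cd3g and Cd8a were dim. Of 9 macrophage markers 1 was higher and 1 lower, with sums of 43.9 to 47.3 with testosterone and 42.5 to 46.0 with placebo.

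Sebocyte probes were higher for 5 of 10 and lower for 1 (sums 48.1 to 71.4 with testosterone and 31.8 to 36.6 with placebo), and lacrimal acinar probes lower for 4 of 7 and higher for 1. Testis germ cell probes summed to 47.1 to 52.6 with testosterone and 7.79 to 9.03 with placebo, of which Stag3 was 41.4 ± 2.46 with testosterone and 1.10 ± 0.126 with placebo, while Tnp1, Dazl, Dmc1 and Spo11 were dim. Of 7 endothelial probes 0 were called, of 8 fibroblast probes 1 was lower, and of 9 basal and duct epithelium probes Krt8 (1.09) was higher and Trp63 (-1.39) lower. Of 6 neutrophil, mast and erythroid probes 2 were lower, Kit (-1.23) and Hba-a1. The alpha globin Hba-a1 was 60.1 ± 9.73 with testosterone and 158 ± 33.3 with placebo. Over all tested probes of the lacrimal gland 13.3% were called higher and 14.8% lower, so 1 call in 8 or 9 probes is close to that share. The part of these cells in the rise of the replication and mitosis genes was not tested.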

How the data were processed

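Arrays of 3 glands, with testosterone or placebo pellets, were grouped by the labels (6 groups of 3 pools). The authors deposited an intensity for each probe, linear and scaled so that array medians lay near 0.94. The array, scanner and scaling method are not given in the sources used here, and 18 arrays bound the precision.

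A value of -1 was taken as missing and other negative values as 0. The limma model (3.58.1, in R 4.3.3) used log2(intensity + 0.174), the offset being the 10th percentile of positive values. It held 1 mean for each group over all 18 arrays, left 12 residual degrees of freedom and used the trended eBayes prior. To be tested, a probe needed 2 values in each group and a level over the 40th percentile on 3 or more arrays, which 7463 of 10500 had. A filter computed over all groups can pass a probe through the group where it is high. P-values were adjusted by Benjamini-Hochberg across the 7463 probes, and 0.05 was the limit for a call. The fit was tested on simulated data.

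Members and lists were chosen with earlier results of these data known. Named genes follow a rule: by role, up to 4 of the largest calls with pools apart, every member called lower, and the brightest uncalled members. Members that the filter removed, those called in the submandibular gland and the largest differences between glands are named too. The remaining members of a complex or role (Mcm3, Mcm4, Mcm6, Mcm7, Cdc6, Orc4, Prim2, Fen1, Rfc1, Rfc3, Rfc5, Ccne2, Cdc25b, Ttk, Bub1b, Bub3, Top2a, Cenpb, Cenph, Cenpp and Cenpw) were named after their values were seen. Probe symbols came from the platform annotation, with no coordinates. Promoters came from RefSeq. Within a gland, residuals of testosterone and placebo pools with the same letter correlated between -0.10 and 0.13, so letters were not used as pairs. Whether pools of the same letter in different glands shared animals was not examined. Comparisons between glands treated these arrays as independent. Alternatives were fits of fewer glands, other offsets, filters, normalizations, variance models and thresholds, a replicate block, and leaving out each array. Figures were drawn with matplotlib 3.10.9.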

Additional observations from a re-analysis of the deposited data

Results flagged for a closer look

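The effect of testosterone differed between glands for many members by a test of the difference itself. Of 76 tested members 36 differed between the lacrimal and meibomian glands, 41 between the lacrimal and submandibular glands and 1 between the submandibular and meibomian glands. Over all tested probes the shares called with a larger and a smaller effect were 6.99% and 10.6%, 10.3% and 13.8%, and 3.99% and 3.4% for the same comparisons, and the single submandibular minus meibomian call is under that background.

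Lacrimal minus meibomian, the 10 largest differences on the log2 scale were Mki67 4.00, Cdk1 3.40, Birc5 3.36, Cdc45 3.36, Cdc20 3.04, Tyms 2.85, Rrm2 2.68, Ccnb2 2.59, Tk1 2.32 and Kif11 2.17. Lacrimal minus submandibular, they were Birc5 3.58, Mki67 3.57, Cdk1 3.33, Tyms 3.11, Cdc45 2.91, Cdc20 2.78, Cenpm 2.40, Ccnb2 2.27, Kif11 2.20 and Ccna2 2.07. Submandibular minus meibomian, Lig1 differed by -0.68. The lacrimal arrays are shared by the first 2 comparisons. Groups of 3 pools are too small for a test of single outlying pools.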

How the results depend on the processing

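Among members called in the lacrimal or submandibular gland, none changed direction in the alternatives that tested them. With a call limited to at least 2-fold, the lacrimal gland had 29 higher and 1 lower, the submandibular gland 0 lower, the submandibular minus meibomian difference 0, and the placebo comparisons 26 lower (lacrimal minus meibomian), 3 higher and 2 lower (lacrimal minus submandibular), and 6 higher and 26 lower (submandibular minus meibomian). With only the glands compared in the fit, 1 member was lower in the lacrimal gland, 1 higher and 1 lower in the meibomian gland, 0 lower in the submandibular gland, and 7 lower in lacrimal minus submandibular placebo pools. At an adjusted p of 0.01 the counts were 1 lower in the lacrimal gland, 1 lower in the submandibular gland, 27 for the lacrimal minus submandibular difference and 5 lower in lacrimal minus submandibular placebo pools. At an adjusted p of 0.1, 2 were higher in the submandibular gland and 5 differed in effect between submandibular and meibomian glands. Array weights gave 13 higher and 15 lower in the meibomian gland, 1 higher in the submandibular gland and 8 for the submandibular minus meibomian difference. Quantile normalization over all arrays gave 1 higher and 5 lower in the submandibular gland, and within glands 2 for the submandibular minus meibomian difference. Leaving out 1 array at a time gave 1 to 4 lower in the lacrimal gland (1 without lacrimal placebo pool C), 0 to 2 higher and 2 to 5 lower in the submandibular gland (2 higher without submandibular placebo pool C and 5 lower without pool A), 1 to 4 for the submandibular minus meibomian difference (4 without submandibular placebo pool A), and 7 to 12 lower in lacrimal minus submandibular placebo pools (7 without lacrimal placebo pool B). The causes were not tested. A replicate block by pool letter gave 48 higher and 3 lower in the lacrimal gland. A filter computed on the arrays of the other glands only, added after seeing the data, gave 44 higher and 2 lower of 72 tested members there, at a background of 12.8% and 14.8%. The other counts of this section stand without the share of all probes at their setting. They show how the calls moved with the processing and are not results about the members. Dim placebo levels limit the precision of fold sizes.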
